A study of Mus musculus with 20 samples.

Results

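The common gamma chain cytokine receptors were described through the mRNA of 6 genes, *Il2rg*, *Il2rb*, *Il15ra*, *Il7r*, *Il4ra* and *Il21r*, taken by symbol from the deposited count tables. The 6 members are 6 of the 16740 genes listed for pooled spleen and peripheral lymph nodes (pLNs) and 6 of the 16784 genes listed for mesenteric lymph nodes (mLNs), and each table was analysed on its own. RNA was sequenced from sorted CD4+Foxp3+ Treg cells (CD4+YFP+) and CD4+Foxp3- T cells (CD4+YFP-) of C57BL/6 mice aged 14 weeks. WT mice carried Foxp3-Cre alone, and Tet2/3 DKO mice carried Foxp3-Cre with *LoxP*-flanked *Tet2* and *Tet3*. Each of the 4 groups held 2 replicates in spleen and pLNs and 3 replicates in mLNs.

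In every group, WT included, the mice carried YFP-Cre in the 3' UTR of *Foxp3*, so the deletion was driven from *Foxp3* and the same allele marked the sort. DKO CD4+Foxp3- cells were cells without current YFP, a mixture. The study describes former Treg cells in it, which carry the deletion, and bystander T cells whose TET function is otherwise normal. It reports reduced *Tet2* and *Tet3* mRNA in CD4+YFP- cells, and elsewhere that these mRNAs were not deleted in CD4+YFP- conventional T cells. The spleen and pLN DKO replicates came from littermates of unequal disease severity, and the labels do not tell which is which. TET enzymes oxidise 5-methylcytosine in DNA, a step towards demethylation.

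The gamma chain encoded by *Il2rg* carries no specificity of its own. It pairs with the chain that binds IL-2 and IL-15 (*Il2rb*), with the receptor chains for IL-7 (*Il7r*), IL-4 (*Il4ra*) and IL-21 (*Il21r*), and with that for IL-9, and it recruits the kinase JAK3, which works with JAK1 to activate STAT factors. *Il15ra* encodes the high-affinity chain that presents IL-15. Treg cells depend on IL-2 and are known for low surface IL-7 receptor, whereas naive and memory T cells use IL-7 for survival.

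The members lie on 4 chromosomes of NCBIM37, the assembly of mm9 (GENCODE M1). *Il2rg* is at chrX:98459717-98463594 on the minus strand, *Il2rb* at chr15:78310983-78325496 (minus), *Il7r* at chr15:9435916-9459631 (minus) and *Il15ra* at chr2:11626914-11655613 (plus). *Il4ra* (chr7:132695785-132722986, plus) and *Il21r* (chr7:132746943-132777084, plus) are neighbours, with 23956 bases between them. Promoter sequence came from RefSeq on GRCm38.p6, with 300 bases around each start: 5 members matched 6 promoters, and *Il2rb* was not among them. CpG dinucleotides, where most 5-methylcytosine of mammalian DNA lies, numbered 1 in the *Il7r* promoter, 3 in *Il2rg*, 6 and 15 in the promoters of *Il15ra*, 7 in *Il21r* and 25 in *Il4ra*, against a median of 7 over 32851 promoters. The *Il4ra* promoter held more CpGs than 81.6% of all promoters, and that of *Il7r* more than 5.43%.

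These promoters were also searched on both strands for 3 motifs chosen after the expression values had been seen: TTCNNNGAA for STAT factors, CCGGAAG for ETS factors such as GABP, and GTAAACA for FOXO factors. The windows that held a match are shown because these factors act downstream of, or on, the receptors described here, and capitals mark the match.
Il2rg (CCGGAAG, chrX:101268254-101268283, minus strand): ggttctttccaCCGGAAGctacgacaaaag
Il15ra (CCGGAAG, chr2:11705178-11705207, plus strand): gaaaggtacagCCGGAAGaaggcaaagtgt
Il7r (TTCNNNGAA, chr15:9529999-9530028, minus strand): gttcaggagcTTCAGGGAAtaccaagatgc
Il21r (GTAAACA, chr7:125603379-125603408, minus strand): gaggggatgtgGTAAACAgtgccccgccca
The motifs do not overlap each other in these windows, and TTCNNNGAA reads as the same pattern on either strand. Over all 32851 promoters, 8.30% held TTCNNNGAA, 8.86% CCGGAAG and 3.65% GTAAACA. Enrichment among the members was not tested, since the motifs were chosen afterwards. The *Il4ra* promoter and the *Il15ra* promoter at chr2:11705462-11705761 held none of the 3.

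Counted reads ran from 13525932 to 15253141 per spleen and pLN library and from 9998478 to 15449158 per mLN library. Levels are CPM, counts scaled to library size after TMM normalization, and the level that 3 counts allow was between 0.172 and 0.299 CPM, for counting error only. All 6 members lay above it in all 20 libraries. DKO replicates differed more among themselves than WT replicates: over the 500 most variable genes, the mean distance of a library to the others of its group was 12.8 to 17.7 in WT and 27.5 to 55.9 in DKO. *Foxp3* was at 153 to 419 CPM in libraries labelled Treg and at 0.211 to 2.75 CPM in CD4+Foxp3- libraries, and *Cd4* and *Cd3e* were present in every library at 474 CPM or more. In bulk samples such as these, fewer cells of a type and less RNA per cell cannot be told apart.

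The receptor chains separated Treg from CD4+Foxp3- cells in 2 directions. *Il2rb* was higher in Treg cells and *Il7r* higher in CD4+Foxp3- cells, in WT and in DKO mice and in both tissues, whereas *Il2rg* differed by 1.10-fold or less. Calls required an adjusted p (Benjamini-Hochberg over all genes, edgeR's quasi-likelihood test) no higher than 0.05 and at least a 1.5-fold change. By this rule 2 of 6 members were called in each of these 4 comparisons, where 4.0% (WT) and 3.77% (DKO) of all genes were called in spleen and pLNs, and 10.1% (WT) and 11.2% (DKO) in mLNs.

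*Il2rb*, the signalling chain shared by the IL-2 and IL-15 receptors, was measured in mLN WT Treg libraries at 958, 986 and 998 CPM and in WT CD4+Foxp3- libraries at 142, 181 and 166 CPM. In DKO mLNs it was at 1057, 789 and 1002 CPM in Treg cells and at 192, 481 and 262 CPM in CD4+Foxp3- cells. The groups did not overlap in either genotype, and DKO replicate 2 had the lowest Treg and the highest CD4+Foxp3- value. The log2 difference between Treg and CD4+Foxp3- cells was 2.59 (SE 0.26, adjusted p = 2.91e-05) in WT, or 6.02-fold, and 1.61 (SE 0.25, adjusted p = 7.54e-04) in DKO, or 3.04-fold.

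Spleen and pLN *Il2rb* was at 1528 and 1581 CPM in WT Treg cells, against 639 and 534 CPM in WT CD4+Foxp3- cells. The DKO values were 1190.4 and 1355 CPM in Treg cells and 813 and 635 CPM in CD4+Foxp3- cells. Treg and CD4+Foxp3- libraries were again apart in both genotypes, with a log2 difference of 1.41 (SE 0.20, adjusted p = 0.00161) in WT and 0.81 (SE 0.20, adjusted p = 0.0415) in DKO. The DKO call was lost without DKO Treg replicate 1 or 2 or DKO CD4+Foxp3- replicate 2 (adjusted p from 0.0549 to 0.112), and its adjusted p ranged from 8.05e-04 to 0.431 over 15 alternatives. Without WT CD4+Foxp3- replicate 2, the WT call was lost as well (adjusted p = 0.0878, in a range from 4.65e-60 to 0.0878).

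*Il7r*, which encodes the IL-7 receptor alpha chain (CD127), showed the opposite order. In mLNs, WT Treg libraries held 134, 109 and 115 CPM and WT CD4+Foxp3- libraries 456, 416 and 431 CPM. The DKO libraries held 94.8, 198 and 90.1 CPM in Treg cells and 515, 779 and 407 CPM in CD4+Foxp3- cells. DKO replicate 2 was the highest of its group in both cell types, and no Treg library reached any CD4+Foxp3- library. Expression was 3.63-fold lower in Treg cells in WT (log2 difference -1.86, SE 0.28, adjusted p = 6.81e-04) and 4.44-fold lower in DKO (-2.15, SE 0.28, adjusted p = 2.56e-04).

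Spleen and pLN *Il7r* was at 174 and 181 CPM in WT Treg cells and at 547 and 585 CPM in WT CD4+Foxp3- cells. The DKO Treg libraries held 104 and 103 CPM and the DKO CD4+Foxp3- libraries 142 and 443 CPM. The last pair stood far apart, with replicate 1 close to the Treg values. The spread behind each test was estimated over all 4 groups, this pair included. The log2 difference between Treg and CD4+Foxp3- cells was -1.67 in WT (SE 0.37, adjusted p = 0.0235) and -1.5 in DKO (SE 0.37, adjusted p = 0.0436). The WT call was lost without any 1 of the 4 WT libraries (adjusted p from 0.154 to 0.325), and the DKO call without DKO Treg replicate 1 or 2 or DKO CD4+Foxp3- replicate 2 (adjusted p from 0.0798 to 0.332). Over all alternatives the adjusted p ranged from 1.00e-105 to 0.325 in WT and from 6.17e-07 to 0.332 in DKO, where the difference without DKO CD4+Foxp3- replicate 2 was -0.45.

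**Figure D1:**
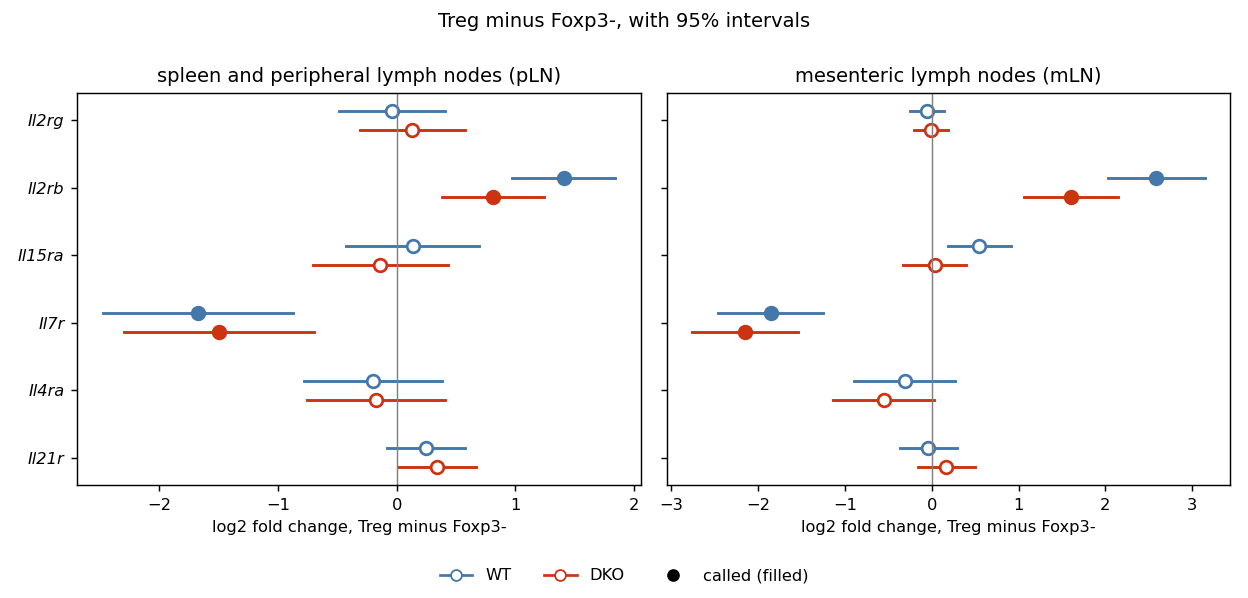
Log2 fold change of each receptor chain between Treg and CD4+Foxp3- cells (x axis, Treg minus CD4+Foxp3-) with 95% intervals from edgeR, for WT and DKO mice in spleen and pLNs (left) and in mLNs (right), with called genes as filled points. *Il2rb* lies to the right of 0 and *Il7r* to the left in all 4 comparisons, with 2.59 and -1.86 in WT mLNs.

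The other chains differed less between the cell types. *Il15ra* was the lowest member, at 8.88, 8.35 and 8.26 CPM in mLN WT Treg cells and 5.53, 6.01 and 5.88 CPM in WT CD4+Foxp3- cells. These groups did not overlap, and the 1.46-fold difference passed the adjusted p (0.0452, log2 0.55, SE 0.17) but not the fold change minimum. Without any 1 of the 6 libraries the adjusted p was 0.0957 to 0.145. In DKO mLNs the *Il15ra* difference was 0.03 (95% interval -0.33 to 0.40). *Il4ra* was lower in Treg cells by 0.31 on the log2 scale in WT mLNs (interval -0.89 to 0.27) and by 0.55 in DKO mLNs (interval -1.14 to 0.03). Without DKO CD4+Foxp3- replicate 2 the DKO difference was -0.92 and was called (adjusted p = 8.81e-05, in a range up to 0.676), and without replicate 1 it was -0.21. *Il21r* differences lay between -0.04 and 0.34 over the 4 comparisons and were not called.

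Treg and CD4+Foxp3- libraries did not overlap for 4 of 6 members in WT mLNs and 2 of 6 in DKO mLNs, where this held for 41.5% and 27.4% of all genes. In spleen and pLNs it held for 5 of 6 members in WT and 4 of 6 in DKO, and for 55.3% and 32.7% of all genes.

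The question of the DKO and WT comparison was how loss of TET2 and TET3 in Treg cells went with the mRNA of these receptors. In mLN Treg cells 1 of 6 members, *Il4ra*, was called, and it fell, where 11.9% of all genes were called and 3.43% fell. There 2 of 6 members had an unadjusted p under 0.05, against 32.4% of all genes. In mLN CD4+Foxp3- cells 0 of 6 were called (3.43% of all genes), with 4 of 6 at an unadjusted p under 0.05 against 18.7% of all genes. With DESeq2's Wald test in place of edgeR, 1 member, *Il2rb*, was called there. In spleen and pLNs 0 of 6 were called in Treg cells (1.74% of all genes) and 0 of 6 in CD4+Foxp3- cells (0.819%), with 1 of 6 at an unadjusted p under 0.05 in each, against 20.4% and 12.9% of all genes. With only the Treg libraries in the fit, edgeR and DESeq2 each called 1 member, *Il7r*, in spleen Treg cells.

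*Il4ra* encodes the chain that binds IL-4 and, with *Il13ra1*, IL-13. In mLN Treg cells it was at 276, 298 and 287 CPM in WT and at 141, 121 and 167 CPM in DKO. Every DKO library was below every WT library, and the mean level was 2.0-fold lower (log2 difference -1.0, SE 0.27, adjusted p = 0.0208). The direction held under all 16 alternatives, from -1.13 to -0.83, but the adjusted p ranged from 7.24e-15 to 0.0792. The call was lost without WT Treg replicate 1, 2 or 3 or DKO Treg replicate 1 or 2 (adjusted p from 0.0530 to 0.0792). Of the 5 B cell markers 4 were higher and 1 lower in the DKO Treg libraries, and *Cd79b*, which fell from 30.2 to 9.62 CPM, carried their sum of 26.8 to 35.4 CPM in WT and 8.81 to 20.8 CPM in DKO. Their part in the difference was not tested.

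In mLN CD4+Foxp3- cells, *Il4ra* was at 359.8, 353 and 356 CPM in WT and at 306, 101 and 224 CPM in DKO. The DKO libraries were again all below the WT libraries but spread over a wide range, with replicate 2 lowest. The log2 difference was -0.76 (SE 0.27, adjusted p = 0.145). Without DKO replicate 1, the library nearest to WT, it was -1.13 with an adjusted p of 0.00784, in a range up to 0.334.

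The spleen and pLN *Il4ra* WT values were 223 and 245 CPM, against DKO values of 148 and 178 CPM. CD4+Foxp3- libraries held 254 and 284 CPM (WT) and 119 and 249 CPM (DKO). DKO libraries were below WT in both cell types, with log2 differences of -0.52 (SE 0.27, adjusted p = 0.298) and -0.55 (SE 0.27, adjusted p = 0.424). Without DKO CD4+Foxp3- replicate 2 the latter was -1.17 (adjusted p = 3.66e-04), and without replicate 1 it was -0.12. The *Il4ra* difference between DKO and WT did not differ between the cell types by more than its error, at 0.03 (interaction, 95% interval -0.80 to 0.85) in spleen and pLNs and -0.24 (-1.06 to 0.58) in mLNs.

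**Figure D2:**
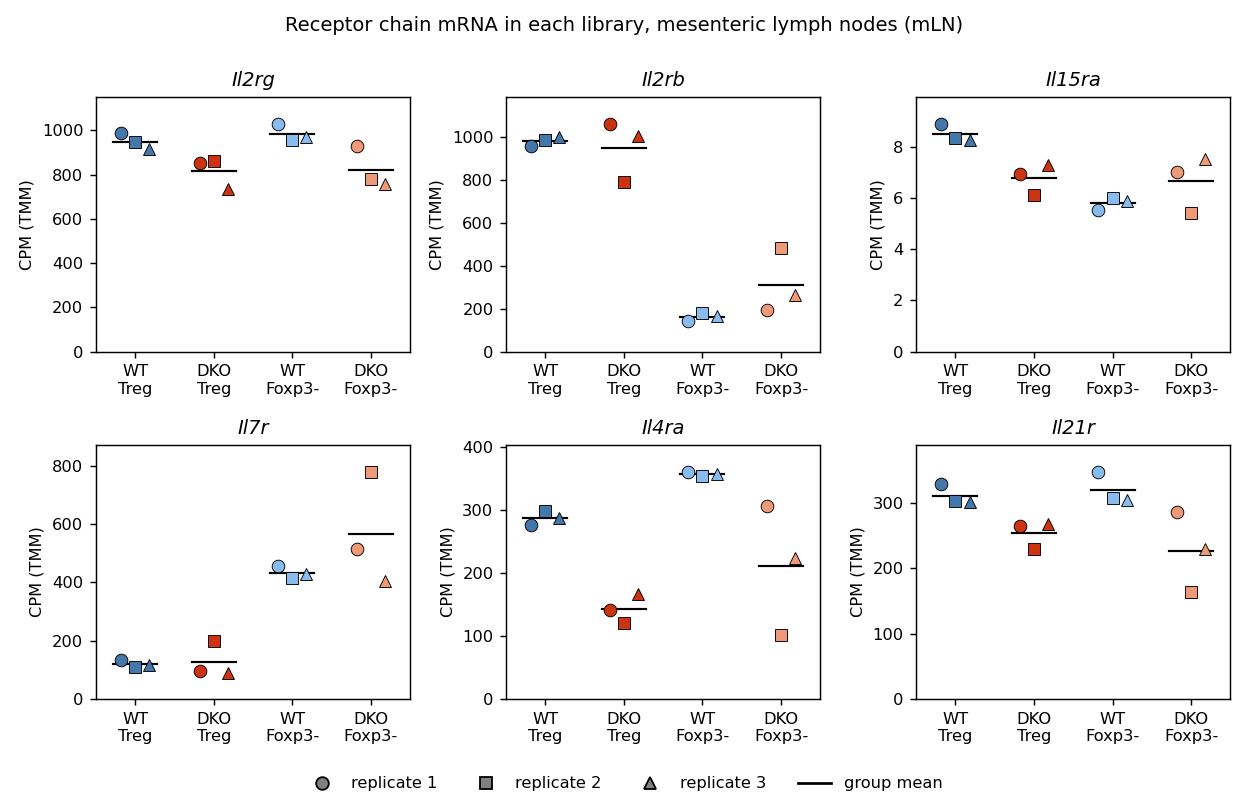
Level of the 6 receptor chains in each of the 12 mLN libraries, in CPM after TMM normalization (y axes from 0), by group, with symbols for replicates and a line at the group mean. *Il4ra* DKO Treg libraries lie between 121 and 167 CPM, below all WT Treg libraries, and DKO replicate 2 (squares) is the highest DKO library in *Il7r* and lowest in *Il4ra* in both cell types.

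*Il21r*, which encodes the IL-21 receptor, lies next to *Il4ra*. In mLN Treg cells it was at 328, 303 and 301 CPM in WT and at 264, 229.9 and 267 CPM in DKO. In mLN CD4+Foxp3- cells the values were 347, 307 and 304 CPM in WT, against 287, 163 and 229 CPM in DKO. DKO libraries were below WT in both, with log2 differences of -0.29 (SE 0.15, adjusted p = 0.206) and -0.50 (SE 0.15, adjusted p = 0.0943). Without DKO CD4+Foxp3- replicate 1 the latter was -0.70 and was called (adjusted p = 0.00336, in a range up to 0.307).

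Spleen and pLN *Il21r* levels were close together. WT libraries held 344 and 353 CPM in Treg cells and 283 and 303 CPM in CD4+Foxp3- cells, and DKO libraries 329.8 and 342 CPM and 260.4 and 271 CPM. The log2 differences were -0.05 (95% interval -0.38 to 0.28) and -0.14 (-0.47 to 0.19), and both turned positive on the TPM scale, which itself lay higher in DKO as given with the TPM levels.

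For *Il2rb*, the mLN Treg levels given above overlapped between WT and DKO (log2 difference -0.05, 95% interval -0.57 to 0.48). In CD4+Foxp3- cells, each DKO library was above all WT libraries, from 192 to 481 CPM against 142 to 181 CPM, and the mean level was 1.91-fold higher. This difference of 0.94 (SE 0.25) had an adjusted p of 0.0539 with edgeR's quasi-likelihood test and was not called. DESeq2's Wald test with the 4 groups gave an adjusted p of 0.00602, and the range over 16 alternatives was 0.00166 to 0.222. Without DKO replicate 1 it was 1.19 and without DKO replicate 2 it was 0.49.

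Of 3 genes that mark NK and iNKT cells, *Klrb1c* had the order of *Il2rb* in these mLN libraries within each genotype and made up most of their sum. It was at 29.9, 135 and 61.8 CPM in DKO CD4+Foxp3- replicates 1, 2 and 3, the order of the *Il2rb* values, and at 6.21 to 12.6 CPM in WT. *Ncr1* was at 0.265 to 0.976 CPM in DKO and 0.0675 to 0.255 CPM in WT, with its highest value in DKO replicate 1, where *Il2rb* was lowest among DKO. *Zbtb16*, an iNKT cell factor, was lower in DKO, at 0.532 to 1.13 CPM against 1.53 to 3.31 CPM in WT. In mLN DKO Treg replicates 1, 2 and 3 *Klrb1c* was at 155, 72.3 and 110.0 CPM, again in the order of *Il2rb*, with WT at 5.02 to 8.19 CPM and *Il2rb* levels that overlapped between the genotypes. Spleen CD4+Foxp3- libraries had the same order within each genotype, with *Klrb1c* at 209 and 96.8 CPM in DKO and 95.2 and 57.5 CPM in WT. The order was the opposite in spleen Treg cells, where DKO replicates 1 and 2 had 110.1 and 86.4 CPM of *Klrb1c* beside 1190.4 and 1355 CPM of *Il2rb*. There *Klrb1c* was at 7.30 and 6.06 CPM in WT, with *Il2rb* at 1528 and 1581 CPM, so the group with more *Klrb1c* had less *Il2rb*. In mLN WT Treg cells the orders also differed. The part of such cells in the *Il2rb* values was not tested.

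The *Il2rb* difference between DKO and WT in spleen and pLNs was -0.29 (95% interval -0.71 to 0.14) for Treg and 0.30 (-0.12 to 0.73) for CD4+Foxp3- cells. Neither was called, and the DKO CD4+Foxp3- values of 813 and 635 CPM overlapped the WT values. The test of the difference between the cell types, the interaction of genotype and cell type, gave -0.59 (SE 0.28, adjusted p = 0.902) in edgeR's fit. In mLNs it gave -0.98 (SE 0.35, adjusted p = 0.293). Of the members, 0 of 6 were called for the interaction in each tissue, with 0 in spleen and pLNs and 1 in mLNs at an unadjusted p under 0.05. Over all genes, 0.00611% were called in spleen and pLNs and 0.280% in mLNs, and 5.53% and 10.9% had an unadjusted p under 0.05.

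*Il7r* was lower in DKO than in WT in spleen and pLNs and had a higher mean in DKO mLNs, which in Treg cells rested on DKO replicate 2 (-0.37 without it). No difference was called, and the tissues were not tested against each other. For spleen Treg cells each DKO library was below each WT library (log2 difference -0.78, SE 0.36, adjusted p = 0.251). Among spleen CD4+Foxp3- cells the difference was -0.95 (SE 0.36, adjusted p = 0.272) and rested on DKO replicate 1: without replicate 2 it was -2.0 (adjusted p = 2.74e-06, in a range up to 0.958), and without replicate 1 it was -0.36. In mLNs the difference was 0.09 in Treg cells (95% interval -0.50 to 0.68) and 0.38 in CD4+Foxp3- cells (-0.20 to 0.97), and groups overlapped in both.

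**Figure D3:**
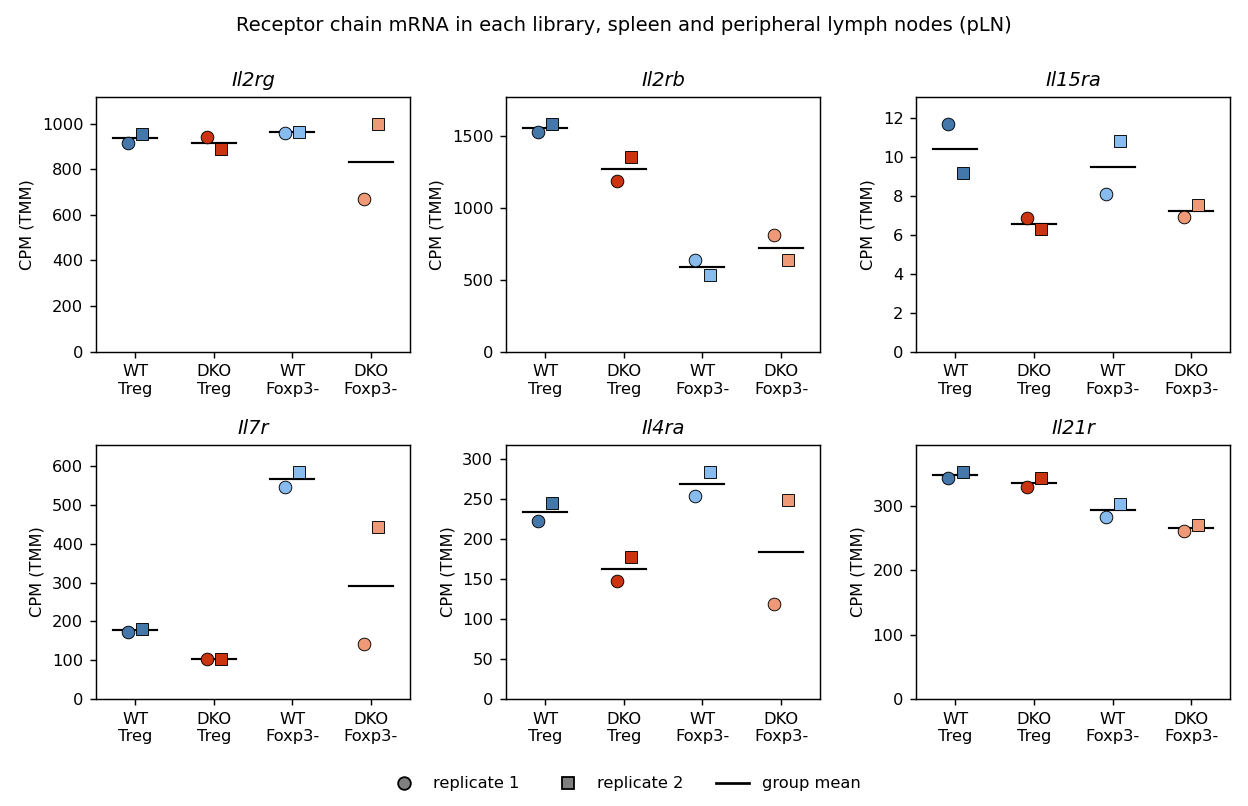
Level of the 6 receptor chains in each of the 8 spleen and pLN libraries, in CPM after TMM normalization (y axes from 0), by group, with symbols for replicates and a line at the group mean. The DKO CD4+Foxp3- replicates stand far apart in *Il7r* (142 and 443 CPM) and *Il4ra* (119 and 249 CPM).

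*Il2rg*, the shared chain, differed by 1.2-fold or less between group means of DKO and WT. In mLN Treg cells it was at 989, 946 and 915 CPM in WT and at 852, 861 and 735 CPM in DKO, and in CD4+Foxp3- cells at 1027, 957 and 971 CPM in WT, against 928, 782 and 758 CPM in DKO. The DKO libraries lay below the WT libraries in both, by 1.16-fold (log2 difference -0.22, SE 0.09, adjusted p = 0.113) and 1.2-fold (-0.26, SE 0.09, adjusted p = 0.141). Spleen and pLN WT libraries held 916 and 955 CPM in Treg cells and 959 and 965 CPM in CD4+Foxp3- cells, and DKO libraries 939.5 and 889 CPM and 669.8 and 996 CPM. These overlapped in both cell types, with differences of -0.03 (95% interval -0.48 to 0.41) and -0.21 (-0.65 to 0.24).

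*Il15ra* was low throughout. The spleen and pLN values were 11.7 and 9.19 CPM in WT Treg cells, 6.87 and 6.28 CPM in DKO Treg cells, 8.13 and 10.9 CPM in WT CD4+Foxp3- cells and 6.91 and 7.56 CPM in DKO CD4+Foxp3- cells. In mLN DKO libraries it was at 6.95, 6.11 and 7.30 CPM in Treg cells and at 7.01, 5.42 and 7.51 CPM in CD4+Foxp3- cells. DKO Treg libraries were below WT Treg libraries in both tissues, without a call (log2 difference -0.66, SE 0.26, adjusted p = 0.175, and -0.33, SE 0.17, adjusted p = 0.202).

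DKO and WT libraries did not overlap for 5 of 6 members in spleen Treg cells and 4 of 6 in spleen CD4+Foxp3- cells, where this held for 54.2% and 41.9% of all genes. In mLNs it held for 4 of 6 members in each cell type, and for 40.5% of all genes for Treg and 20.9% for CD4+Foxp3- cells.

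**Figure D4:**
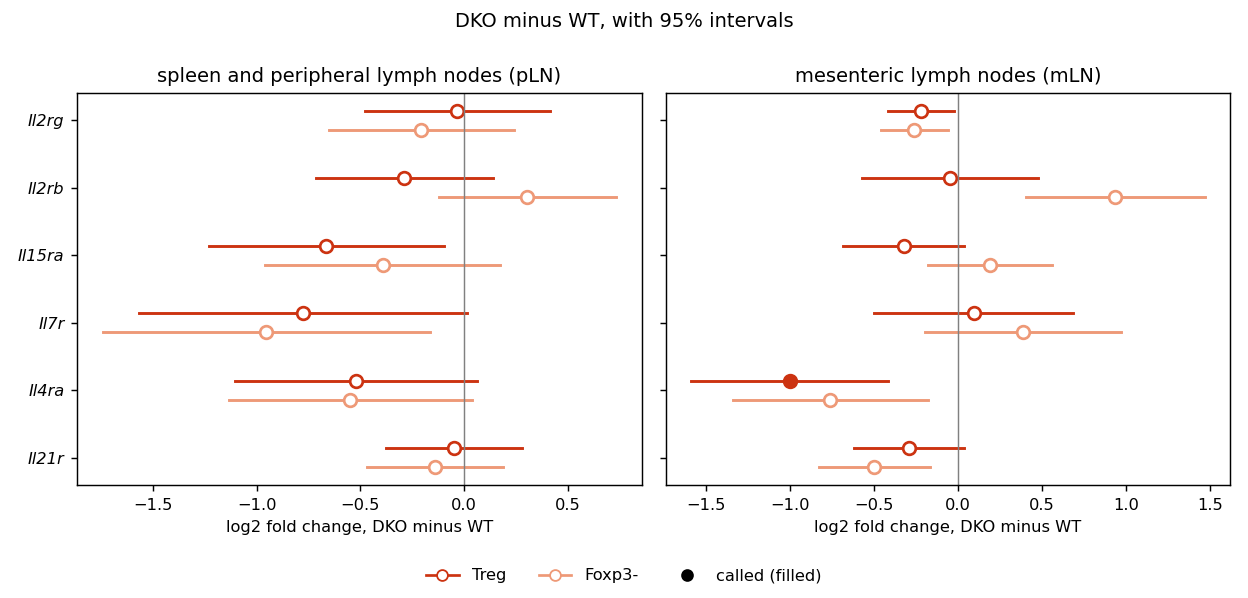
Log2 fold change of each receptor chain between DKO and WT (x axis, DKO minus WT) with 95% intervals from edgeR, in Treg and CD4+Foxp3- cells of spleen and pLNs (left) and of mLNs (right), with called genes as filled points. The only filled point is *Il4ra* in mLN Treg cells, at -1.0.

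For levels between genes, the deposited TPM, which are per length, were used. *Il2rg* had the highest TPM in all 8 groups and *Il15ra* the lowest. In spleen WT Treg cells *Il2rb* (845 TPM) and *Il2rg* (850.1 TPM) did not differ beyond their spread, followed by *Il21r* (196 TPM), *Il7r* (81.0 TPM), *Il4ra* (67.2 TPM) and *Il15ra* (9.89 TPM). In spleen WT CD4+Foxp3- cells the order was *Il2rg* (835 TPM), *Il2rb* (305 TPM), *Il7r* (246 TPM), *Il21r* (157 TPM), *Il4ra* (73.8 TPM) and *Il15ra* (8.54 TPM), with no overlap between neighbours.

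Spleen DKO Treg cells kept the order of WT Treg cells, from 1058 TPM of *Il2rg* and 871 TPM of *Il2rb* down to 60.0 TPM of *Il7r* and 58.8 TPM of *Il4ra*, which overlapped between libraries, as did *Il2rg* and *Il2rb*. Within each of the 2 libraries *Il2rg* was above *Il2rb*. In spleen DKO CD4+Foxp3- cells *Il21r* (169.9 TPM) and *Il7r* (141 TPM) overlapped behind *Il2rg* (839.5 TPM) and *Il2rb* (457 TPM).

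In mLN WT Treg cells *Il2rg* (1042 TPM) stood above *Il2rb* (664 TPM), *Il21r* (217 TPM), *Il4ra* (103 TPM), *Il7r* (68.0 TPM) and *Il15ra* (7.67 TPM). In mLN WT CD4+Foxp3- cells *Il2rb* was above *Il15ra* alone: *Il2rg* (993 TPM), *Il7r* (227 TPM), *Il21r* (205 TPM), *Il4ra* (117 TPM), *Il2rb* (102 TPM) and *Il15ra* (4.82 TPM) formed an order without overlap. In mLN DKO Treg cells *Il7r* (81.3 TPM) and *Il4ra* (58.0 TPM) overlapped. In mLN DKO CD4+Foxp3- cells *Il2rb* (206 TPM) overlapped *Il7r* (311 TPM) and *Il21r* (151 TPM) between libraries, but within each of the 3 libraries *Il7r* was above *Il2rb*.

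Divided by *Il2rg* in the same library, *Il2rb* was at 0.638 ± 0.038 (SD, n = 3) in mLN WT Treg cells, 0.724 ± 0.143 in DKO Treg cells, 0.102 ± 0.016 in WT CD4+Foxp3- cells and 0.240 ± 0.128 in DKO CD4+Foxp3- cells. The DKO CD4+Foxp3- ratios ran from 0.127 to 0.380, all above the highest WT ratio of 0.117. *Il7r* stood at 0.228 ± 0.003 of *Il2rg* in mLN WT CD4+Foxp3- cells and at 0.360 ± 0.135 in DKO, a log2 change of the ratio of 0.66 that was 0.31 without DKO replicate 2. In spleen CD4+Foxp3- cells the same ratio was lower in DKO, at 0.165 ± 0.083 (n = 2) against 0.295 ± 0.013 in WT. That log2 change of -0.84 was -1.47 without DKO replicate 2 and -0.40 without DKO replicate 1. *Il4ra* was at 0.099 ± 0.007 in mLN WT Treg cells and 0.058 ± 0.015 in DKO. The scale of the TPM moved with genotype: over genes averaging 10 TPM or more, the median log2 TPM difference was 0.22 in spleen DKO against WT Treg cells, 0.19 in spleen CD4+Foxp3- cells, 0.13 in mLN Treg cells and 0.05 in mLN CD4+Foxp3- cells. TPM levels were therefore not compared between genotypes here, and ratios were taken within a library.

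**Figure D5:**
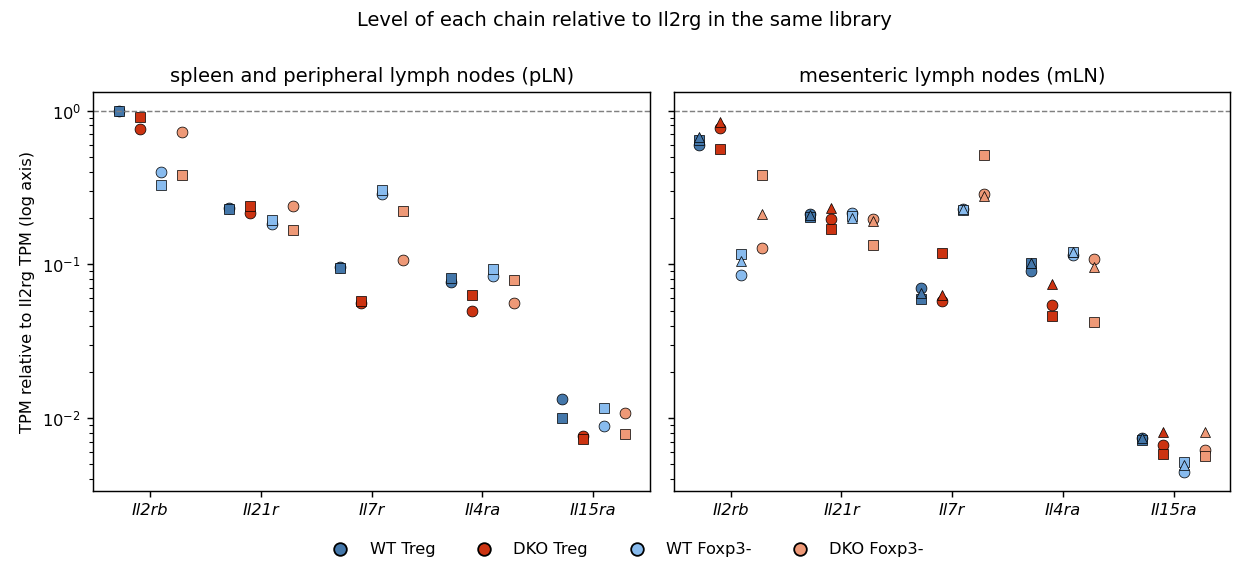
TPM of each receptor chain divided by that of *Il2rg* in the same library (y axis, log scale), for spleen and pLNs (left) and mLNs (right), with colours for groups, symbols for replicates and a dashed line at equal TPM. *Il2rb* reaches the line in spleen WT Treg cells (0.994) and lies at 0.102 in mLN WT CD4+Foxp3- cells, and *Il15ra* is lowest throughout.

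Of 3 other chains that join these receptors, *Il9r*, the alpha chain for IL-9, fell in DKO Treg cells. Its mean was 18.4 CPM in spleen WT Treg cells and 5.23 CPM in DKO (log2 difference -1.82, SE 0.32, adjusted p = 0.0181). In mLNs it fell from 8.39 to 2.05 CPM in Treg cells (-2.02, SE 0.33, adjusted p = 0.00139) and from 10.5 to 3.11 CPM in CD4+Foxp3- cells (-1.76, SE 0.32, adjusted p = 0.0122). *Il13ra1*, the partner of *Il4ra* for IL-13, fell in Treg cells from 9.48 to 0.600 CPM in spleen and from 3.89 to 0.400 CPM in mLNs (log2 differences -3.94 and -3.23, adjusted p = 0.00260 and 4.10e-04), and in spleen CD4+Foxp3- cells from 2.49 to 0.299 CPM (-3.0, adjusted p = 0.0300). *Crlf2*, the TSLP receptor chain, passed the test in no comparison of DKO with WT. *Il2ra*, the IL-2 receptor alpha chain, is not reported here.

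Among ligands, *Il21* rose in mLN DKO Treg cells (mean 25.4 against 3.97 CPM, log2 difference 2.66, SE 0.66, adjusted p = 0.0140) and in DKO CD4+Foxp3- cells (86.3 against 14.2 CPM, 2.60, SE 0.59, adjusted p = 0.0308), where the libraries overlapped. It was the only one of 6 tested ligands called in either, where 11.9% (Treg cells) and 3.43% (CD4+Foxp3- cells) of all genes were called. Of 7 ligands tested in spleen and pLNs, 0 were called by edgeR between DKO and WT in Treg cells (0 at an unadjusted p under 0.05) and 0 in CD4+Foxp3- cells (1 at an unadjusted p under 0.05). Over all genes 1.74% and 0.819% were called there, with 20.4% and 12.9% at an unadjusted p under 0.05. *Il2* was at or under 3.19 CPM in every library.

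The feedback inhibitors, which STAT5 and other STATs induce, fell in mLN DKO Treg cells, 4 of 4, where 3.43% of all genes fell. *Socs2* fell from 78.5 to 13.1 CPM (log2 difference -2.59, SE 0.27, adjusted p = 1.15e-04) and *Cish* from 177 to 47.9 CPM (-1.89, SE 0.19, adjusted p = 1.03e-04). *Socs3* (-0.91) and *Socs1* (-0.89) fell less. In mLN CD4+Foxp3- cells, where 3.43% of all genes were called, 1 of 4 was, *Cish* (from 24.7 to 13.6 CPM, -0.86, adjusted p = 0.0361). Of 4 in spleen and pLNs, 0 were called by edgeR in Treg cells (2 at an unadjusted p under 0.05) and 0 in CD4+Foxp3- cells (0 at an unadjusted p under 0.05). The shares of all genes were 1.74% and 0.819% called, and 20.4% and 12.9% at that unadjusted p. *Cish* was at 85.7 CPM in DKO and 170.0 CPM in WT spleen Treg cells (-0.99, adjusted p = 0.0874).

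Some feedback inhibitors were also higher in Treg than in CD4+Foxp3- cells. In WT mLNs *Cish* was at 177 CPM in Treg and 24.7 CPM in CD4+Foxp3- cells (log2 difference 2.84, adjusted p = 1.90e-06), and *Socs2* at 78.5 and 1.90 CPM (5.38, adjusted p = 6.04e-07). In spleen and pLNs 3 of 4 were higher in WT Treg cells and 1 of 4, *Cish*, in DKO Treg cells, and in mLNs 2 of 4 in each genotype, against 4.0%, 3.77%, 10.1% and 11.2% of all genes called in the 4 comparisons. The others were not called, and 1 of 4 in WT and 2 of 4 in DKO mLNs had a lower estimate in Treg cells.

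Of 6 survival and proliferation genes downstream of these receptors, *Bcl2* fell in mLN DKO Treg cells from 241 to 126 CPM (log2 difference -0.93, SE 0.12, adjusted p = 4.13e-04) and *Pim2* rose from 45.6 to 106 CPM (1.21, SE 0.25, adjusted p = 0.00506). In spleen DKO Treg cells *Pim2* (0.92, adjusted p = 0.0394) and *Myc* (0.86, adjusted p = 0.0274) rose. By edgeR's quasi-likelihood test 0 of the 6 were called in DKO CD4+Foxp3- cells of either tissue, with 2 at an unadjusted p under 0.05 in each. The shares of all genes were 0.819% called and 12.9% at that unadjusted p in spleen and pLNs, and 3.43% and 18.7% in mLNs. Of 6 factors reported to act on *Il7r* or *Il2rb*, *Gfi1*, a repressor of *Il7r*, fell in mLN DKO Treg cells from 54.3 to 34.8 CPM (-0.64, adjusted p = 0.0246) and *Runx3* rose from 47.2 to 79.1 CPM (0.74, adjusted p = 5.80e-04), while *Il7r* itself did not pass the test there. *Foxo1*, an activator of *Il7r*, was at 287 CPM in DKO and 445 CPM in WT (-0.64, adjusted p = 0.0853).

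The 17 receptors of other cytokine families serve as a comparison. In mLN DKO Treg cells 3 rose and 6 fell (9 of 17 called), where 1 of 6 gamma chain family members was called and 11.9% of all genes. *Tgfbr1*, a TGF-beta receptor, fell from 173 to 77.8 CPM (log2 difference -1.15, SE 0.14, adjusted p = 2.35e-04) and *Il18r1* from 102 to 35.1 CPM (-1.53, SE 0.23, adjusted p = 9.34e-04). *Il1r1* rose from 2.45 to 32.1 CPM (3.70, SE 0.75, adjusted p = 0.00457) and *Il23r* from 2.95 to 19 CPM (2.68, SE 0.55, adjusted p = 0.00511). The median log2 difference in this comparison was -0.43 over the 17 and -0.26 over the 6 gamma chain members, against 0.00 over all genes tested. In spleen DKO Treg cells 1 of 17 was called, *Il18r1* (from 90.8 to 22.7 CPM, -2.0, adjusted p = 0.00502), against 1.74% of all genes. There 8 of 17 had an unadjusted p under 0.05, against 20.4% of all genes. The medians were -0.30 over the 17, -0.40 over the 6 members and 0.02 over all genes. In DKO CD4+Foxp3- cells 0 of 17 were called by edgeR in either tissue, against 0.819% of all genes in spleen and pLNs and 3.43% in mLNs. At an unadjusted p under 0.05 there were 5 in spleen and pLNs and 6 in mLNs, against 12.9% and 18.7% of all genes. The medians were -0.30 over the 17 and -0.30 over the 6 members in spleen and pLNs, and -0.12 and -0.03 in mLNs. These comparisons were not tested against each other.

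Markers of other cells moved with genotype in the same libraries. Summed over their lists, 6 myeloid markers were at 3.51 to 43.9 CPM in mLN DKO Treg cells and 1.41 to 3.37 CPM in WT, and at 9.42 to 23.1 CPM against 1.46 to 2.58 CPM in spleen. In CD4+Foxp3- cells they were at 6.30 to 25.2 CPM in DKO and 5.60 to 7.06 CPM in WT mLNs, with the highest sum in DKO replicate 2, and at 17.1 to 19 CPM and 5.92 to 8.12 CPM in spleen. *Cd14* was at 0 in the WT groups other than spleen Treg cells and *Csf1r* at 0 in mLN WT CD4+Foxp3- cells. The sum of the 5 B cell markers was 27.7 to 29.6 CPM in spleen WT and 9.83 to 13.2 CPM in DKO Treg cells, although 4 of the 5 were higher in DKO: *Cd79b* alone was lower, at 6.46 CPM against 27.5 CPM. In CD4+Foxp3- cells all 5 were higher in DKO in both tissues, with sums of 3.54 to 3.57 CPM (WT) and 6.15 to 9.10 CPM (DKO) in spleen and 2.39 to 2.70 CPM (WT) and 2.39 to 16.3 CPM (DKO) in mLNs. The highest mLN value was again DKO replicate 2, the DKO CD4+Foxp3- library with the highest *Il2rb* and *Il7r* and the lowest *Il4ra* and *Il21r*. Without it the mLN log2 differences of DKO from WT in these cells were 0.49 for *Il2rb*, 0.10 for *Il7r*, -0.41 for *Il4ra* and -0.30 for *Il21r*. *Pax5* was at 0 in mLN WT Treg cells. The sum of the 2 CD8 markers, nearly all *Cd8b1*, was lower in DKO Treg cells in mLNs (2.95 to 3.94 CPM against 16.0 to 20.8 CPM) and in spleen (6.70 to 9.42 CPM against 17.2 to 19.7 CPM), and in DKO CD4+Foxp3- cells, at 5.0 to 10.1 CPM against 21.5 to 23.3 CPM in mLNs and 5.09 to 11.3 CPM against 14.8 to 17.8 CPM in spleen, where *Cd8a* was at 0.299 CPM in DKO and 0.194 CPM in WT. The 3 NK and iNKT markers summed to 89.5 to 114 CPM in spleen DKO Treg cells against 6.54 to 7.92 CPM in WT, and to 106 to 213 CPM against 60.1 to 99.7 CPM in CD4+Foxp3- cells. Their part in the receptor values was not tested.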

How the data were processed

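Per the labels and the study's methods, the authors sequenced strand-specific mRNA libraries from 1 end, aligned reads to mm9 with TopHat2 2.1.1 (1 alignment per read at most) and counted reads of RefSeq genes using featureCounts (Subread 1.4.3-p1). The deposited counts are not normalized, and the deposited TPM were made by the authors in an unstated way. Columns without a sample numbered 0. The mean distance between replicates, the levels and the tests were computed here. Genes with at least 1 count in total (16357 in spleen and pLNs, 16784 in mLNs) were TMM-normalized and tested with edgeR 4.0.16 (limma 3.58.1, R 4.3.3, Python 3.11.15), the 4 groups of a table in 1 fit without a replicate block, with the call rule given above (adjusted p 0.05, fold change 1.5). The biological coefficient of variation was 21.6% and 17.7%. The p-values rest on 2 or 3 samples a group and on a spread estimated over all 4 groups of a table. A comparison of 2 groups therefore also carries the spread of groups outside it.

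The members and lists were chosen with earlier results of these data known. Named beyond the members were called genes of the lists with at least 10 CPM in the higher group, at most 3 per list and comparison. *Il9r* in mLN Treg cells, *Il13ra1*, *Socs1*, *Tgfbr1* and list genes given without a call were named after their values were seen. The kinases and STAT factors are not reported here. Same-numbered Treg and CD4+Foxp3- libraries deviated together from their group means, with r = 0.138 to 0.544 over 6 pairs in mLNs across 8410 genes. Centring on 3 replicates ties these values together. Unlike-numbered mLN pairs had r = -0.436 to 0.178. DKO CD4+Foxp3- replicate 1 had 0.178 with Treg replicate 3 and 0.138 with Treg replicate 1. In spleen and pLNs r was 0.319 and 0.309, where each genotype gives 1 independent value. A fit blocked by replicate number within genotype was therefore run. The labels give replicate numbers and do not say that same-numbered libraries share a mouse. In spleen and pLNs the study took both DKO cell types from the same 2 littermates, so DKO libraries share mice there as well. The block was run in both tissues, and the reported fit has none. The test was also run on simulated counts with known fold changes, and the outcome is not reported here. Alternatives were DESeq2 1.42.0 (4 or 2 groups), DESeq2 size factors, 2-group edgeR, filterByExpr, a robust prior, a replicate block, no fold change minimum, limma on log2(TPM + 1) and log2(TPM + 0.1), and leaving out each replicate. Coordinates of the tables' genes are on NCBIM37, and promoters on GRCm38.p6.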

Additional observations from a re-analysis of the deposited data

Results flagged for a closer look

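In spleen and pLNs *Il2rb* moved in opposite directions in the cell types when group means were compared: the difference between DKO and WT on the log2 scale, Treg minus CD4+Foxp3-, was -0.59. Both DKO Treg libraries lay below both WT Treg libraries, whereas both DKO CD4+Foxp3- libraries lay above the WT mean, and the test of this difference did not pass (edgeR's quasi-likelihood test, adjusted p = 0.902). In mLNs the difference between DKO and WT itself differed between Treg and CD4+Foxp3- cells for 47 genes (0.280% of those tested) by edgeR's interaction test, with 0 of the 6 receptors among them. The lists of related genes hold 2 of the 47. *Socs2*, which fell in DKO Treg cells and was at 2.01 CPM in DKO and 1.90 CPM in WT CD4+Foxp3- cells, had an interaction of -2.71 (SE 0.48, adjusted p = 0.0349). *Tgfbr1*, at 43.4 CPM in DKO and 40.2 CPM in WT CD4+Foxp3- cells, had one of -1.26 (SE 0.20, adjusted p = 0.0187). Groups of 2 or 3 libraries were not searched for single libraries that stand apart.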

How the results depend on the processing

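The direction of every call of a member in mLN Treg against CD4+Foxp3- cells, and each such call, held under all alternatives run, the replicate block included. Of 972 values of single members under alternatives, 868 kept direction and side of the threshold, 40 lost a call, 15 gained one and 49 turned sign without a call in the reported fit. The cause of the changes was not tested.

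Members called in spleen and pLN WT Treg against CD4+Foxp3- cells numbered 2, and 1 with filterByExpr, a robust prior, the replicate block within genotype or limma on log2(TPM + 0.1), and 0 with log2(TPM + 1). In DKO they numbered 2, 1 with the replicate block, and 0 with filterByExpr, a robust prior, the block within genotype, only the groups compared (DESeq2 or edgeR) or either TPM fit. In spleen DKO against WT Treg cells 1 was called instead of 0 with only these groups in DESeq2 or edgeR. In mLN DKO against WT Treg cells 0 were called instead of 1 with a robust prior or either TPM fit, and in CD4+Foxp3- cells 1 instead of 0 with DESeq2 (4 or 2 groups). In spleen and pLNs the block within genotype gave *Il7r* -1.67 (adjusted p = 0.106 in edgeR's test) in WT and -1.28 (adjusted p = 0.187) in DKO. It gave *Il2rb* 0.82 (adjusted p = 0.0738) in DKO. These calls of the reported fit were thus lost when same-numbered libraries were treated as pairs (r = 0.319 and 0.309). The study took both DKO cell types from the same littermates, and the labels do not say which libraries share a mouse. The replicate block changed no other call of a member. Leaving out each library in turn, the members called numbered 0 to 1 in spleen WT and 0 to 3 in spleen DKO Treg against CD4+Foxp3- cells, 2 to 3 in mLN DKO Treg against CD4+Foxp3- cells, 0 to 2 in spleen and 0 to 3 in mLN DKO against WT CD4+Foxp3- cells, 0 to 1 in mLN DKO against WT Treg cells, and 0 to 1 for the interaction in each tissue. The interaction calls were *Il7r* in spleen and pLNs without DKO CD4+Foxp3- replicate 2 (1.22, adjusted p = 0.00278 in edgeR's test) and *Il2rb* in mLNs without DKO CD4+Foxp3- replicate 1 (-1.26, adjusted p = 0.0334).

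On the TPM scale, 12 uncalled differences turned sign at both pseudocounts, all to positive. Spleen and pLN DKO minus WT became 0.30 for *Il2rg*, 0.041 for *Il2rb* and 0.28 for *Il21r* in Treg cells, and 0.0068 for *Il2rg* and 0.10 for *Il21r* in CD4+Foxp3- cells. Treg minus CD4+Foxp3- became 0.027 for *Il2rg* in WT, and 0.019 for *Il15ra* and 0.068 (0.070 with the pseudocount of 0.1) for *Il4ra* in DKO. In mLNs DKO minus WT in Treg cells became 0.12 for *Il2rb*, and Treg minus CD4+Foxp3- became 0.070 for *Il2rg* and 0.083 (0.084) for *Il21r* in WT and 0.22 for *Il2rg* in DKO.

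Leaving out single libraries turned the sign of 17 uncalled differences, which ran as follows from lowest to highest. For Treg minus CD4+Foxp3- in DKO mLNs, *Il15ra* ran from -0.13 to 0.13, *Il21r* from -0.055 to 0.35 and *Il2rg* from -0.080 to 0.058, and in WT mLNs *Il21r* from -0.082 to 0.022. In spleen and pLNs, *Il15ra* ran from -0.057 to 0.36 in WT, and in DKO *Il2rg* from -0.13 to 0.45 and *Il4ra* from -0.61 to 0.45. For DKO minus WT, *Il2rb* ran from -0.13 to 0.070 and *Il7r* from -0.37 to 0.29 in mLN Treg cells, and *Il2rg* from -0.077 to 0.0033 in spleen Treg cells and from -0.52 to 0.047 in spleen CD4+Foxp3- cells. The interaction ran in mLNs from -0.014 to 0.39 for *Il21r*, from -0.026 to 0.11 for *Il2rg* and from -0.61 to 0.11 for *Il4ra*, and in spleen and pLNs from -0.084 to 0.49 for *Il2rg*, from -0.41 to 0.65 for *Il4ra* and from -0.42 to 1.22 for *Il7r*.

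Over all alternatives, all genes called ran in mLNs from 1325 to 3249 (reported 2001) for DKO against WT Treg cells, 2 to 1453 (575) for CD4+Foxp3- cells, 1149 to 2544 (1687) for WT and 906 to 2956 (1885) for DKO Treg against CD4+Foxp3- cells, and 9 to 462 (47) for the interaction. For spleen and pLNs these ran from 4 to 1696 (285), 0 to 2751 (134), 144 to 2060 (654), 185 to 1586 (617) and 0 to 674 (1). With 2 replicates a group, spleen and pLN results rested on few libraries, and *Il15ra*, the lowest member, rested on the fewest reads.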

Other observations

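For each member, the genes with the most similar pattern over the 12 mLN libraries were found by the root mean square difference of centred log2 CPM, among 8410 genes with at least 10 CPM on average. All candidates share the libraries and their depth. For *Il2rg* they were *Ndufs7* (0.0463, and 0.206 over the 8 spleen and pLN libraries) and *Rps6ka1* (0.0488 and 0.148). For *Il2rb* they were *Capg* (0.151 and 0.386) and *Lclat1* (0.235 and 0.408). For *Il15ra* they were *Sp140* (0.104 and 0.354) and *Agfg1* (0.106 and 0.432). The nearest to *Il7r* were *Cyp2s1* (0.277 and 0.315) and *Cd40lg* (0.289 and 0.619). The nearest to *Il4ra* were *Tbxa2r* (0.153 and 0.452) and *Mgat4a* (0.188 and 0.269), and to *Il21r* *Prkci* (0.117 and 0.124) and *Cep63* (0.120 and 0.299). The likeness did not carry over to spleen and pLNs for all of them. Of all genes tested there, the share closer to the member was 34.1% for *Sp140*, 51.7% for *Agfg1*, 38.0% for *Tbxa2r* and 41.3% for *Cep63*.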
